A study of Mus musculus with 3 samples.

Results

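Single cells of injured tibialis anterior muscle from old mice given recombinant meteorin-like protein (old rMETRNL) were compared with those of young mice given saline (young PBS), to find which genes and cell classes still differed from young muscle after the protein was given. All cells of both libraries in which 500 or more genes were detected and mitochondrial genes gave less than 10% of UMIs were taken, which left 11403 young PBS cells and 12786 old rMETRNL cells, or 24189 of the 35247 cells that passed in the whole series. A UMI is a tag that marks 1 captured RNA molecule. The animals were C57/BL6J mice from the aged colony of the National Institute on Aging, and the labels give their age here only as young or old. Every group received an intramuscular injection of barium chloride, which kills muscle fibres and starts their regeneration, and the muscle was collected on day 4 after that injury. Young PBS and old PBS animals received phosphate-buffered saline in the muscle, and old rMETRNL animals received the recombinant protein. Cells of several mice were pooled before the single 10x Genomics 3' library of each group was made and no sort or gate is described, so that differences between mice were not measured. All intervals below are 95% intervals and cover counting error only. No test between groups was possible with 1 library a side, and age and treatment cannot be told apart in a difference between old rMETRNL and young PBS. The old PBS level is given beside most values for context. It shares the young PBS library as its reference with the comparison described here.

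METRNL is a secreted cytokine made by macrophages and other cells of injured muscle. After barium chloride injury, monocytes enter the tissue and become macrophages that clear debris. Fibro/adipogenic progenitors (FAPs), the PDGFRA-positive stromal cells of muscle, expand for a time and lay down extracellular matrix. Muscle stem cells expressing Pax7 activate Myod1, then switch on Myog and leave the cell cycle before they fuse into new fibres.

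The young PBS library held 12168 barcodes and 218059089 UMIs, the old PBS library 12568 barcodes and 179295668 UMIs, and the old rMETRNL library 14012 barcodes and 228966697 UMIs. After barcodes with the highest doublet scores were left out, 10293 young PBS, 9946 old PBS and 11353 old rMETRNL cells were kept, with medians of 15081, 13690 and 14518 UMIs a cell. Of the barcodes of young PBS and old rMETRNL, 58 occurred in both libraries, 25 of them among the kept cells. Clustering gave 24 clusters, which were assigned to classes by their markers and are called by those names with "-like". The 16 FAP markers summed to 36184 CPM in FAP-like cells of young PBS and 36786 CPM in those of old rMETRNL, and the 24 macrophage markers summed to 34506 and 34114 CPM in macrophage/monocyte-like cells. CPM is the usual depth-scaled count, the UMIs of a gene relative to the UMIs of all genes summed over the cells of that class in a library. Where 3 levels follow each other with no library named, the order is young PBS, old PBS, old rMETRNL. Metrnl mRNA in macrophage/monocyte-like cells measured 189 CPM in young PBS against 208 CPM in old PBS, with 216 CPM in old rMETRNL. An injected protein leaves no RNA of its own, so this level does not check the label.

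The most numerous classes, macrophage/monocyte-like and FAP-like cells, took similar shares of both libraries, while endothelial-like, myogenic-like, T/NK-like and mature fibre-like cells had ratios whose intervals did not hold 1. Macrophage/monocyte-like cells, the most numerous class, made up 61.5% of young PBS cells, 61.6% of old PBS cells and 61% of old rMETRNL cells. The ratio of old rMETRNL to young PBS was 0.991 (0.958 to 1.03). FAP-like cells were 16.4%, 14% and 15.6% of the 3 libraries in the same order, and their ratio of 0.954 had an interval from 0.892 to 1.02. Dendritic-like, tenocyte-like and pericyte/smooth muscle-like cells also had ratios whose intervals held 1, at 0.908 (0.809 to 1.02), 1.21 (0.995 to 1.46) and 0.957 (0.73 to 1.25). Endothelial-like cells, which line vessels, had a larger share in both old libraries, at 8.86% of old PBS and 8.24% of old rMETRNL cells against 6.06% of young PBS cells, a ratio of 1.36 (1.23 to 1.51). Myogenic-like cells, the muscle stem cells and their progeny, were 4.5% of young PBS, 2.05% of old PBS and 3.76% of old rMETRNL cells. Their ratio was 0.836 (0.731 to 0.956) and turned to 1.14 under a stricter filter of 1000 genes and 5% mitochondrial UMIs. The young PBS median for this class, 5.83% mitochondrial UMIs, was itself past that limit. The medians of old rMETRNL (5.17%) and old PBS (6.32%) were past it too. The stricter filter therefore left out a large part of the class, and its role in the turned ratio was not tested. T/NK-like lymphocytes had the lowest ratio, 0.524 (0.416 to 0.658), from 2.05% in young PBS and 1.07% in old rMETRNL, with 1.88% in old PBS. The natural killer-led cluster of this class held 105 young PBS, 37 old PBS and 38 old rMETRNL cells, and the T cell-led cluster held 106, 150 and 84 cells. Mature fibre-like barcodes, marked by contractile genes such as Ckm and Acta1, numbered 34 in young PBS against 436 in old PBS, with 130 in old rMETRNL, a ratio of shares of 3.47 (2.36 to 5.22), or 2.21 under the stricter filter. Schwann-like cells (46, 96 and 64) and B-like cells (7, 20 and 17) were too few for narrow intervals, with ratios of 1.26 (0.85 to 1.88) and 2.2 (0.868 to 6.28).

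**Figure D1:**
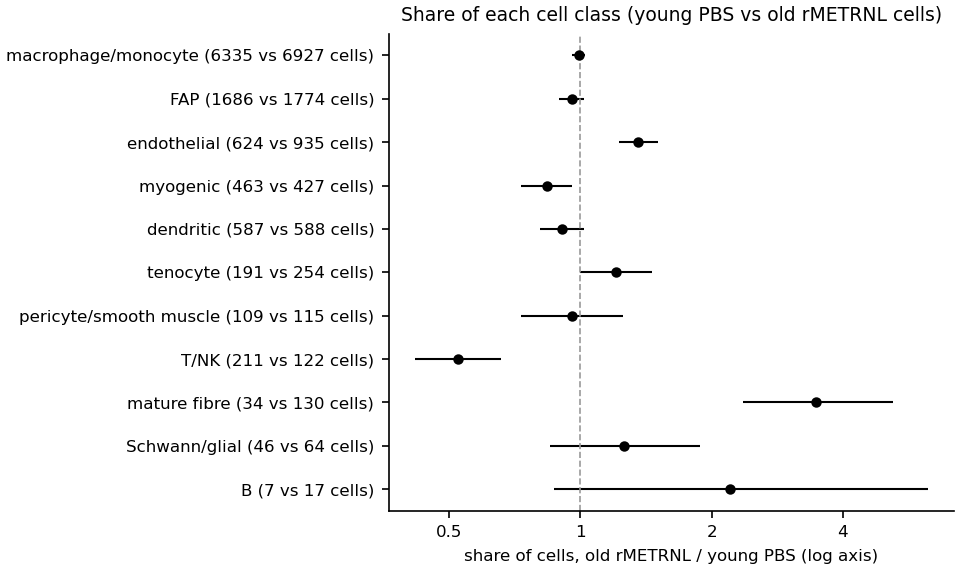
Ratio of each class's share of kept cells, old rMETRNL over young PBS, on a log axis for 11 cell classes, with bars for the 95% counting interval. Points right of 1 are larger shares in old rMETRNL: mature fibre-like (3.47) and endothelial-like (1.36) cells lie above 1, T/NK-like (0.524) and myogenic-like (0.836) cells below 1, and macrophage/monocyte-like cells sit at 0.991.

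Across genes, most levels in old rMETRNL lay close to those in young PBS in every class. A gene was compared in a class when it had at least 200 UMIs over both libraries, and it counted as past the fold when its CPM differed at least 1.5-fold. In macrophage/monocyte-like cells 308 of 11605 genes (2.65%) were past the fold, 213 higher and 95 lower in old rMETRNL. FAP-like cells had 409 of 11473 genes past it (3.56%), with 228 higher and 181 lower. The share was 2.17% of 7926 genes in endothelial-like cells and 2.83% of 8881 in myogenic-like cells. Dendritic-like cells had 2.05% of 5453 genes past the fold, with 0.917% higher and 1.14% lower, and tenocyte-like cells had 4.17% of 4484, with 2.39% higher and 1.78% lower. The shares were largest in pericyte/smooth muscle-like cells, at 10.1% of 2437 genes (6.98% higher and 3.08% lower), and T/NK-like cells, at 4.76% of 1765 (1.98% higher and 2.78% lower). In all cells summed without regard to class, 3.77% of 14340 genes were past the fold. With the mean of per-cell CPM in place of summed UMIs, 562 endothelial-like, 456 myogenic-like and 430 tenocyte-like genes were past the fold, so the order of the classes depends on that choice. Of the genes at 20% or more of the level in their highest class, 177 of 9977 were past the fold in macrophage/monocyte-like cells, 251 of 10240 in FAP-like cells and 119 of 7487 in endothelial-like cells. Levels in the classes with fewer cells rest on fewer UMIs and have wider counting intervals. Median log2 ratios over all genes were between -0.0115 in T/NK-like and 0.0356 in macrophage/monocyte-like cells, so the scale was close to that of young PBS in each class. In myogenic-like cells genes past the fold were more often lower (162) than higher (89), and in macrophage/monocyte-like cells more often higher.

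Of 5451 genes measured in at least 5 classes, 4 were at least 1.5-fold higher in old rMETRNL in every class where they were measured, and 0 were lower in every class. Hnrnpa0 (ENSMUSG00000007836, minus strand of chromosome 13, 58125879 to 58128556, GRCm38), which encodes an RNA-binding protein that acts on AU-rich elements of cytokine mRNAs, passed in all 8 classes. Its level in FAP-like cells was 130 CPM in young PBS against 205 CPM in old PBS, with 279 CPM in old rMETRNL, a ratio of 2.14 (2.07 to 2.21). The ratio ran from 1.74 in macrophage/monocyte-like cells (83.7, 117 and 146 CPM) to 2.5 in myogenic-like cells (172, 291 and 431 CPM). Mbd2, a reader of methylated CpG sites, also passed in all 8 classes, with ratios from 1.8 in pericyte/smooth muscle-like to 2.71 in myogenic-like cells. Endothelial-like cells held 83.4 CPM of Mbd2 in young PBS against 172 CPM in old PBS, with 202 CPM in old rMETRNL. Brd1, a scaffold subunit of histone acetyltransferase complexes, was measured in 6 classes, with ratios from 1.81 to 2.41. The upper end was in dendritic-like cells, at 23.2 CPM in young PBS against 40.7 CPM in old PBS, with 55.8 CPM in old rMETRNL. Csnk2a2, a catalytic subunit of casein kinase 2, was measured in 6 classes too, with ratios from 1.76 in macrophage/monocyte-like to 2.38 in myogenic-like cells. For all 4 genes the old PBS level lay between young PBS and old rMETRNL in each class. With 1 library a side, a difference of the library and a difference of the cells cannot be told apart in these genes.

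**Figure D2:**
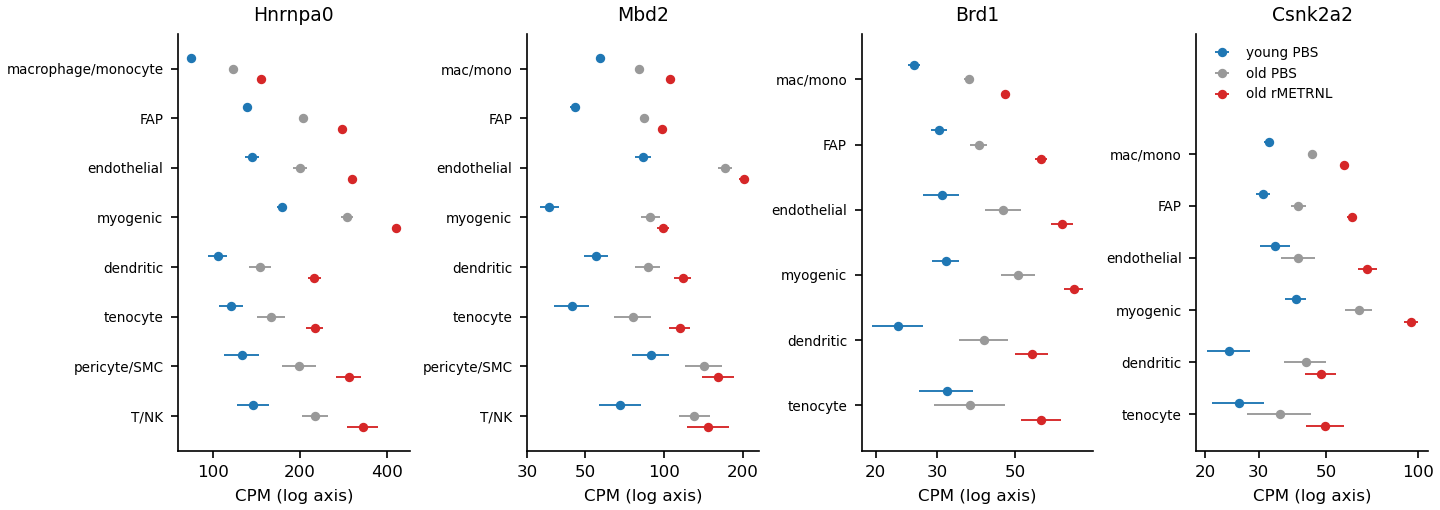
CPM of Hnrnpa0, Mbd2, Brd1 and Csnk2a2 by cell class in young PBS, old PBS and old rMETRNL, on log axes with 95% counting intervals. In each class shown the young PBS point is lowest and the old rMETRNL point highest, for example 83.7, 117 and 146 CPM of Hnrnpa0 in macrophage/monocyte-like cells.

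Genes that stood below young PBS in every cluster of FAP-like cells included several imprinted genes, which are expressed from the copy of 1 parent and include growth regulators of the fetus. Mest (ENSMUSG00000051855, plus strand of chromosome 6, 30723547 to 30748465), a paternally expressed hydrolase gene, measured 369 CPM in young PBS against 140 CPM in old PBS, with 129 CPM in old rMETRNL. The ratio to young PBS was 0.349 (0.339 to 0.359), and it was below 1 in each of the 3 FAP-like clusters. Both old libraries lay at a similar level, well below young PBS. With every cell thinned to 2000 UMIs, 30.5% of young PBS FAP-like cells had a Mest UMI (28.3 to 32.8), 14.1% of old PBS cells and 14.6% of old rMETRNL cells (13 to 16.4), with 1 young PBS and 48 old rMETRNL cells left out as too shallow. Without thinning the shares were 67.7% in young PBS and 42.6% in old rMETRNL at medians of 26179 and 24704 UMIs. Macrophage/monocyte-like cells, in which Mest UMIs are taken as background, gave 1.06% and 0.757% after the same thinning, at medians of 14090 and 14323 UMIs before it. Zim1, a zinc finger gene of the imprinted Peg3 domain (minus strand of chromosome 7, 6671269 to 6696450), followed the same order with 13.1, 5.49 and 4.69 CPM, a ratio of 0.359 (0.306 to 0.42).

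Further imprinted genes were looked up after Mest and Zim1 were seen, and so describe these values only. Peg3 itself (minus strand of chromosome 7, 6703892 to 6730431), a paternally expressed zinc finger gene, stood at 157 CPM in young PBS against 79.6 CPM in old PBS, with 68.5 CPM in old rMETRNL, a ratio of 0.435 (0.417 to 0.454). H19, a maternally expressed long non-coding RNA (minus strand of chromosome 7, 142575529 to 142578143), was at 429, 288 and 218 CPM, a ratio of 0.508. Plagl1, Dlk1 and Meg3 were lower by less, with ratios of 0.695, 0.704 and 0.758. Nnat, with 26 young PBS and 14 old rMETRNL UMIs, was too low to compare. Others lay nearer to young PBS, among them Gnas at 0.797, Grb10 at 0.811, Cdkn1c at 0.863, Igf2 at 0.913, Igf2r at 0.983 and Ndn at 1.04. The imprinted genes did not differ as 1 group: Mest, Zim1, Peg3 and H19 had ratios from 0.349 to 0.508 and the others with enough UMIs from 0.695 to 1.04.

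The other genes furthest below young PBS in FAP-like cells included Fbn2, the fibrillin of developing elastic microfibrils, at 53.9, 11.6 and 17.7 CPM in young PBS, old PBS and old rMETRNL, a ratio of 0.328 (0.303 to 0.355). Megf6 (9.63, 3.23 and 2.29 CPM), Nefm, which encodes a neurofilament subunit (6.03, 1.72 and 1.51 CPM), Rflna (4.05, 1.69 and 1.34 CPM), 6330403K07Rik (7.51, 3.45 and 1.99 CPM) and Gm11627 (5.28, 2.23 and 1.77 CPM) were lower in all 3 FAP-like clusters, with ratios between 0.238 and 0.336. Nefm had 57.7% of its young PBS UMIs in 5 cells, and Col6a5, a collagen VI chain with a ratio of 0.193, had 55.5%. Car3 had a ratio of 0.213 that rested on 10 young PBS cells and was 4.86 under the stricter cell filter. Of the genes in this paragraph Fbn2 was the most abundant, and it was lowest in old PBS.

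Among the genes furthest above young PBS, Cxcl13, the chemokine that attracts B cells, stood at 9.66 CPM in young PBS against 17.4 CPM in old PBS, with 44 CPM in old rMETRNL, a ratio of 4.56 (4.11 to 5.06). It came from few cells, 33 in young PBS and 132 in old rMETRNL, and 5 cells held 86.6% and 53.9% of its UMIs. After thinning, 0.593% of young PBS and 2.49% of old rMETRNL FAP-like cells had a Cxcl13 UMI. Without thinning the shares were 1.96% and 7.44%, and macrophage/monocyte-like cells gave 0.0322% and 0.0742% after it. C7, a terminal complement component (1.55, 8.68 and 5.78 CPM in young PBS, old PBS and old rMETRNL), Slco2a1, a prostaglandin transporter (11.3, 31.4 and 30.1 CPM), and Inmt, a methyltransferase (3.06, 11.3 and 8.54 CPM), were at least 2.67-fold above young PBS, and here old PBS was the highest. Dmkn (10.3, 8.84 and 28.2 CPM) and Prrt4 (1.34, 3.42 and 4.85 CPM) were highest in old rMETRNL, with ratios of 2.74 and 3.62. In young PBS 5 cells held 53.9% of the Dmkn and 50.7% of the Inmt UMIs, and Inmt was lower in 1 of the 3 clusters. Saa3, an acute-phase protein gene, was at 7.62, 18.3 and 19.7 CPM, with over 70% of its UMIs in 5 cells in both libraries compared. Col2a1, the cartilage collagen, had a ratio of 12.9 (8.07 to 21.8) from 10 and 33 cells.

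The FAP-like clusters differed in size as well. The largest, led by Sfrp1, Cxcl14 and Sfrp2, held 1328 young PBS, 988 old PBS and 1204 old rMETRNL cells, a ratio of its share of the class of 0.862 (0.796 to 0.932). The cluster led by Pi16 and Sema3c, markers of an adventitial fibroblast state, held 255, 347 and 412 cells, a ratio of 1.54 (1.31 to 1.8). Inmt was among the leading genes of that cluster. A dividing cluster led by mitotic genes held 103, 56 and 158 cells, a ratio of 1.46 (1.13 to 1.89). The cell cycle list moved with these sizes: 22 of its 24 measured genes were above young PBS in FAP-like cells, with a median log2 ratio of 0.24 against -0.0016 over all genes, but 0 were past the fold, and the median was -0.075 when the clusters were weighted equally.

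Collagens and other matrix genes were close to young PBS on balance. Of 18 collagen chain genes in FAP-like cells 0 were past the fold, against 1.99% higher and 1.58% lower over all genes, and the median log2 ratio was -0.067. Col1a1, a chain of type I collagen, stood at 11807 CPM in young PBS against 10265 CPM in old PBS, with 9563 CPM in old rMETRNL, a ratio of 0.81. Col3a1 was at 11650, 13524 and 12111 CPM, a ratio of 1.04. Among 20 matrix glycoprotein and proteoglycan genes 2 were lower, against 1.58% of all genes: Mfap4, a microfibril protein (254, 211 and 125 CPM), and Eln, which encodes elastin (213, 241 and 130 CPM). Mfap4 and Eln were lowest in old rMETRNL, at ratios of 0.494 and 0.609. Tnc and Postn, injury-induced matrix genes, had ratios of 0.677 and 0.725, and Dcn, the proteoglycan decorin, was above young PBS at 3644, 5942 and 4611 CPM, a ratio of 1.27. Of 15 genes of collagen crosslinking and TGF-beta response, Tagln was past the fold, at 112, 40.7 and 64.7 CPM.

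In the TNF and NF-kB response list, 14 of 18 genes in FAP-like cells were above young PBS, with a median of 0.21 on the log2 scale, and Il6, an inflammatory cytokine, was past the fold (199, 403 and 300 CPM, ratio 1.51). The IGF axis, growth factors and their binding proteins, had 2 of 9 genes higher and 1 lower, against 1.99% higher and 1.58% lower over all genes: Igfbp6 at 366, 712 and 651 CPM and Igfbp5 at 252, 471 and 395 CPM were higher than in young PBS, and Igfbp3 at 54.8, 66.9 and 36.4 CPM was lower. The chemokine Cxcl14, a FAP product, was at 591, 1463 and 977 CPM, a ratio of 1.65, and 4 of 19 chemokine genes were higher, against 1.99% of all genes. In the complement list the median log2 ratio was 0.33, and C3, its central component, was at 299, 573 and 424 CPM. For Il6, Igfbp6, Igfbp5, Cxcl14 and C3, old rMETRNL lay between young PBS and old PBS. All 13 heat shock genes were above young PBS with a median log2 ratio of 0.20 and 0 past the fold, as were all 11 antioxidant genes with a median of 0.26 and 1 past it. Apoptosis regulators had a median of -0.023 over 23 genes with 0 past the fold. Markers of other classes also differed in FAP-like cells and their part in these values was not tested: the summed level of 14 pericyte/smooth muscle markers was 747 CPM in young PBS and 549 in old rMETRNL with 12 lower, that of 11 tenocyte markers was 923 and 708 CPM with 7 lower, and that of 12 Schwann markers was 429 and 252 CPM with 4 lower and 7 higher. On the other side, 12 mature fibre markers summed to 30, 114 and 61.7 CPM with 11 higher in old rMETRNL, and 24 macrophage markers to 1120, 1167 and 1168 CPM with 20 higher.

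**Figure D3:**
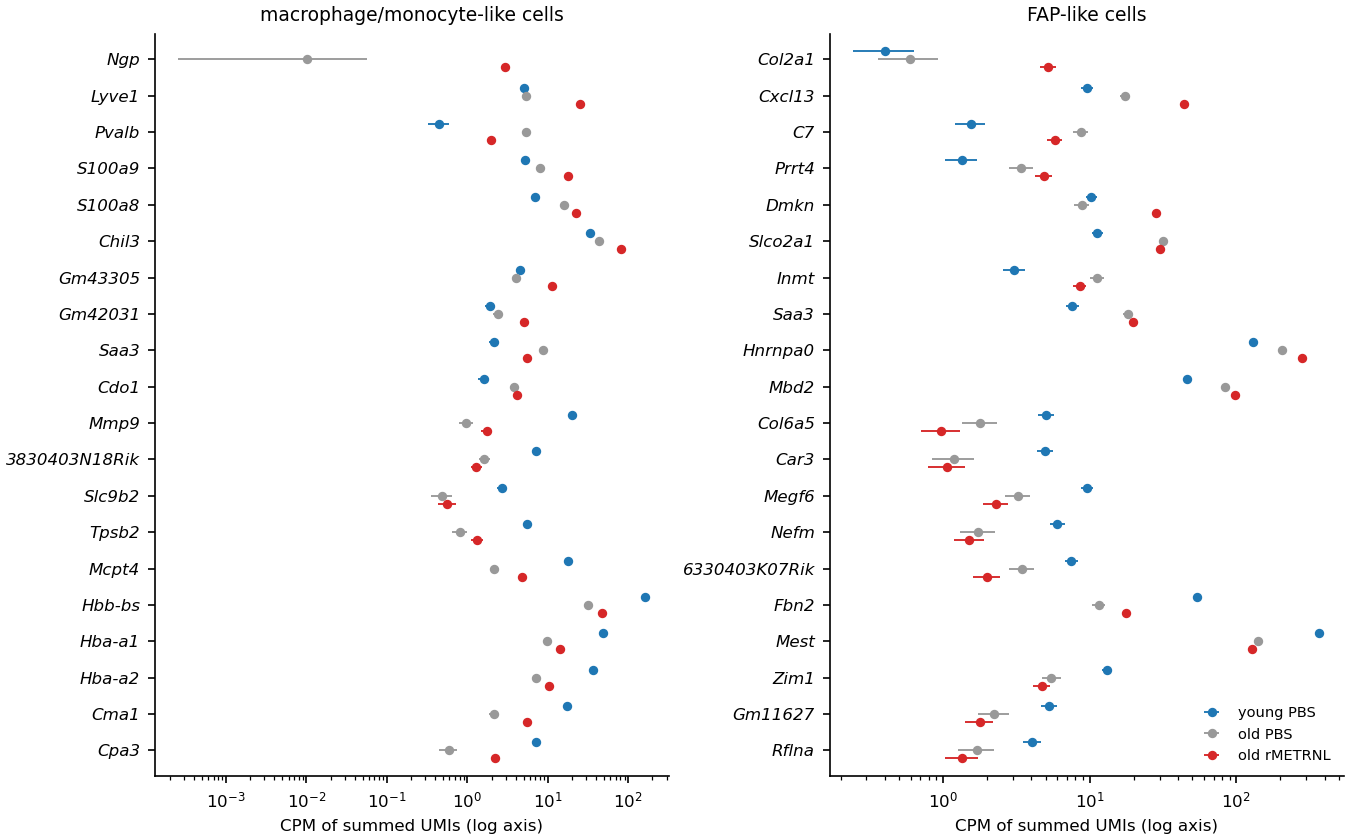
CPM on a log axis of the 20 genes furthest from young PBS in macrophage/monocyte-like cells and the 20 in FAP-like cells, with a point for each of the 3 libraries and bars for 95% counting intervals. Lyve1 in macrophage/monocyte-like cells stands at 5.02, 5.36 and 25.5 CPM and Mest in FAP-like cells at 369, 140 and 129 CPM; Ngp has no young PBS point because it had 0 UMIs there.

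In macrophage/monocyte-like cells, several genes of tissue-resident and anti-inflammatory macrophages were past the fold on the higher side in old rMETRNL. Genes of MHC class I and class II presentation were all below young PBS in the class as a whole, by less than 1.5-fold for all but 1. Lyve1 (ENSMUSG00000030787, minus strand of chromosome 7, 110850607 to 110863239), a hyaluronan receptor of resident macrophages, measured 5.02 CPM in young PBS against 5.36 CPM in old PBS, with 25.5 CPM in old rMETRNL, a ratio of 5.08 (4.62 to 5.6). Young and old PBS lay close together and old rMETRNL stood above both. After thinning, a Lyve1 UMI was found in 0.74% of young PBS cells (0.542 to 0.986), 1.05% of old PBS cells and 2.39% of old rMETRNL cells (2.04 to 2.78), against 0.0593% and 0.116% of FAP-like cells in young PBS and old rMETRNL. The unthinned shares were 1.91% and 6.64% of macrophage/monocyte-like cells. Within the cluster led by Cd163 and Lyve1 its level was 41 CPM in young PBS against 55.8 CPM in old PBS, with 143 CPM in old rMETRNL, a ratio of 3.48, and that cluster held 552, 689 and 1090 cells, a ratio of its share of 1.81 (1.63 to 2).

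Chil3, a chitinase-like protein gene of monocytes and alternatively activated macrophages, was at 33.9, 43.8 and 81 CPM in young PBS, old PBS and old rMETRNL, a ratio of 2.39 (2.3 to 2.49), and was higher in all 9 clusters of the class. After thinning, 6.29% of young PBS, 7.51% of old PBS and 13.3% of old rMETRNL cells had a Chil3 UMI. FAP-like cells gave 0.356% in young PBS and 0.29% in old rMETRNL. Of 12 anti-inflammatory macrophage genes 5 were higher and 0 lower, with a median log2 ratio of 0.32 against 0.036 over all genes, where 1.84% were higher and 0.819% lower. Cd163, the haemoglobin scavenger receptor, was at 14.1, 17.2 and 28.4 CPM and Ccl24, an eosinophil chemokine, at 22, 25.4 and 37.7 CPM, ratios of 2.02 and 1.71. Retnla, induced by interleukin 4, was at 50.4 CPM in young PBS and was higher in old PBS (110) than in old rMETRNL (92.5). Mrc1, the mannose receptor, was at 333, 393 and 455 CPM, a ratio of 1.37 that was not past the fold. On the other side of young PBS was Il10, an anti-inflammatory cytokine gene (90.2, 96.6 and 72.7 CPM, ratio 0.806). Chemokine genes had 3 of 19 higher, among them Ccl6 at 282, 352 and 461 CPM. Ccl2, the main monocyte attractant, was at 697, 666 and 978 CPM, a ratio of 1.4.

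The lipid-associated list, genes of macrophages that have taken up debris, had a median log2 ratio of 0.29 with 12 of 14 genes above young PBS and only Ctsk past the fold, on the lower side. The cluster led by Atp6v0d2, Mmp12 and Spp1 held 814 young PBS, 1172 old PBS and 1274 old rMETRNL cells, a ratio of its share of 1.43 (1.31 to 1.56). Inflammatory monocyte genes had a median of -0.028, with 2 of 11 higher against 1.84% of all genes. The cluster led by Slfn1, Slfn4 and Ly6c2 held 968, 290 and 800 cells, a ratio of 0.756 (0.687 to 0.831), so that old rMETRNL was nearer to young PBS there than old PBS was. All 24 cell cycle genes were above young PBS, with a median log2 ratio of 0.25 and 0 past the fold. With the clusters weighted equally that median was 0.056.

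Among the genes furthest below young PBS, Mmp9 (plus strand of chromosome 2, 164940780 to 164955850), a gelatinase, stood at 19.8 CPM in young PBS against 0.967 CPM in old PBS, with 1.73 CPM in old rMETRNL, a ratio of 0.0876 (0.0752 to 0.101). In young PBS 5 cells held 68.1% of its UMIs, and in the Atp6v0d2-led cluster its level was 84.4 CPM in young PBS and 1.49 in old rMETRNL. Mmp9 UMIs were in 116 young PBS and 115 old rMETRNL cells, and the gene was lower in 6 clusters and higher in 3. Slc9b2 was at 2.68, 0.483 and 0.566 CPM, with 47.4% of its young PBS UMIs in 5 cells. It had UMIs in 65 young PBS and 49 old rMETRNL cells and was lower in 6 clusters and higher in 3. By contrast, 3830403N18Rik (plus strand of chromosome X, 56136572 to 56153498), an unnamed gene, was spread over 271 young PBS and 59 old rMETRNL cells and was lower in all 9 clusters, at 7.11, 1.62 and 1.3 CPM, a ratio of 0.183. Mcpt4, Cma1, Cpa3 and Tpsb2, proteases of mast cells, had ratios from 0.236 to 0.319, and over 91% of the UMIs of each lay in 5 cells of either library. The summed level of 6 mast cell markers was 48.5 CPM in young PBS against 5.86 CPM in old PBS, with 14.2 CPM in old rMETRNL. The 4 haemoglobin genes had ratios from 0.286 to 0.35, with Hbb-bs at 162, 31.6 and 46.8 CPM and 5 cells holding 92.2% of its UMIs in young PBS. The 6 erythroid markers summed to 272, 52 and 79.7 CPM. On the higher side were S100a8, S100a9 and Ngp, genes of neutrophils. S100a8 (6.91, 15.9 and 22.3 CPM, ratio 3.23) had UMIs in 226 young PBS and 538 old rMETRNL cells and was higher in all 9 clusters, with 54.7% and 54.3% of its UMIs in 5 cells. S100a9 (ratio 3.44) had 96.7% and 84.2% in 5 cells. Ngp had 0 UMIs in young PBS, with an upper Poisson limit of 0.0372 CPM, and all its old rMETRNL UMIs came from 2 cells. The 9 neutrophil markers summed to 79.4, 93.1 and 106 CPM. Pvalb, a fibre gene, was at 0.444, 5.44 and 2 CPM beside a summed level of 12 mature fibre markers of 94.3, 211 and 122 CPM. Whether these cells or free RNA entered the class was not tested. Saa3, Cdo1 and the unnamed genes Gm43305 and Gm42031 were between 2.53-fold and 2.64-fold higher, at levels of at most 11.3 CPM.

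Interferon-stimulated genes had median log2 ratios below 0 in macrophage/monocyte-like, FAP-like, endothelial-like and myogenic-like cells. Endothelial-like cells held the largest count of these genes past the fold, though not the largest share of those measured. These genes encode antiviral and related proteins. Many are driven by IRF factors, which bind repeats of GAAA in their promoters. Of 22 list members 15 were found in the RefSeq promoter table (build GRCm38.p6, from 250 bases before to 50 bases after the start), and 9 of the 15 (60%) held GAAA, any 2 bases and GAAA again on either strand, against 1079 of all 27025 genes (3.99%). A match is only a description of the sequence. Promoters of 3 members are shown, Bst2, which was below young PBS in every class, and Ifit3 and Isg15, which were below young PBS by less than 1.5-fold in endothelial-like cells. Capitals mark GAAA, any 2 bases and GAAA, or the reverse complement, TTTC, any 2 bases and TTTC. Bst2 is at chr8:71537423-71537722 on the minus strand, with overlapping matches that begin 130 and 124 bases before the start. Ifit3 is at chr19:34583279-34583578 on the plus strand, with matches 156 and 122 bases before the start. Isg15 is at chr4:156200769-156201068 on the minus strand, with overlapping matches 78, 72 and 66 bases before the start.
Bst2: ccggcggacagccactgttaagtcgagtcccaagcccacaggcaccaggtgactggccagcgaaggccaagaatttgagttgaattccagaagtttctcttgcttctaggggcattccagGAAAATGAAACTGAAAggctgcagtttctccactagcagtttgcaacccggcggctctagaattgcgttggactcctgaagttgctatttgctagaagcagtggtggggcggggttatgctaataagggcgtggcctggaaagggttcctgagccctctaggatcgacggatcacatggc
Ifit3: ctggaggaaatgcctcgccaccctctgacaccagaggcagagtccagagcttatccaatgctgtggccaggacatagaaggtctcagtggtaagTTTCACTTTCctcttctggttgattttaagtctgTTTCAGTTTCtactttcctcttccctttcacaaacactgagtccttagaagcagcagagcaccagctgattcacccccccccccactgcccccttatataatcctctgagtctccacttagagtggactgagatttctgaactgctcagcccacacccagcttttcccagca
Isg15: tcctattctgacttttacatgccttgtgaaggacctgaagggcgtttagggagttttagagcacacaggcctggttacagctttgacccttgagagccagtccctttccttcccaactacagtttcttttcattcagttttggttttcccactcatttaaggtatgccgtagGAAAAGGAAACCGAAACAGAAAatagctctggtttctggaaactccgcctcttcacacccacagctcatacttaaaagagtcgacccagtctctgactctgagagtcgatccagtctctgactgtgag

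In endothelial-like cells 7 of 21 interferon-stimulated genes were at least 1.5-fold lower and 0 higher, against 0.871% lower over all genes, and the median log2 ratio was -0.41. Ifi27l2a, an interferon-induced mitochondrial protein gene (chromosome 12, 103442167 to 103443680), stood at 733 CPM in young PBS against 268 CPM in old PBS, with 328 CPM in old rMETRNL, a ratio of 0.448 (0.43 to 0.467). Zbp1, a sensor of nucleic acids, was at 80.8, 35.6 and 43.2 CPM, and Irf7, a transcription factor of the response, at 293, 185 and 183 CPM. Bst2, the antiviral protein tetherin, was at 1400, 701 and 878 CPM, a ratio of 0.627. Oasl2 and Ifi44 were also past the fold, with ratios of 0.623 and 0.633. For each gene named so far both old libraries lay below young PBS. Ifit3 at 242, 218 and 165 CPM and Isg15 at 383, 484 and 352 CPM were below young PBS by less than 1.5-fold, and Iigp1, at 1655, 2969 and 1657 CPM, was level with it. All 12 genes of MHC class I presentation were below young PBS as well, with a median log2 ratio of -0.45, and Psmb9, an immunoproteasome subunit (193, 126 and 116 CPM), and H2-Q7 (498, 374 and 300 CPM) were past the fold. Endothelial-like cells of old rMETRNL had a median of 6879 UMIs, those of young PBS 11012 and those of old PBS 3749. The summed level of 24 macrophage markers in them was 803, 1389 and 1279 CPM with 21 higher in old rMETRNL, that of 14 pericyte/smooth muscle markers 453, 802 and 656 CPM with 13 higher, and that of 12 mature fibre markers 35.6, 339 and 80.6 CPM with all 12 higher. Their part in the lower interferon levels was not tested.

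Macrophage/monocyte-like cells had 3 of 21 interferon-stimulated genes lower and 0 higher, against 0.819% lower over all genes, with 18 below young PBS and a median log2 ratio of -0.33. The 3 were Ifi27l2a (2774, 1057 and 1779 CPM), Irf7 (582, 240 and 378 CPM) and Ifi44 (37.2, 11.5 and 20.4 CPM), each at a level between those of old and young PBS. Rsad2, which encodes the antiviral enzyme viperin, was at 241, 127 and 247 CPM and so matched young PBS. The median was -0.14 when the clusters of the class were weighted equally. All 12 genes of MHC class I presentation and all 7 of class II were below young PBS, with medians of -0.22 and -0.32, of which 1 and 0 were past the fold. The class II genes differed between clusters and libraries: Cd74, the invariant chain, was at 4890, 5690 and 3852 CPM and H2-Aa at 2119, 2672 and 1718 CPM, highest in old PBS, and within the 9 clusters H2-Aa was lower in 5 and higher in 4. A cluster led by Dnase1l3 and Tlr12 held 791, 480 and 613 cells, a ratio of its share of 0.709 (0.637 to 0.789). FAP-like cells had 0 of 21 interferon-stimulated genes past the fold and a median of -0.26, with Bst2 at 821, 392 and 588 CPM. In myogenic-like cells 6 of 17 were lower, against 1.82% of all genes, with a median of -0.46, but 0 were at a level of at least 20% of the highest class, and the median was 0.27 under the stricter cell filter. Bst2 was below young PBS in all 8 classes, with ratios from 0.613 in myogenic-like to 0.82 in T/NK-like cells, and Ifi27l2a was below young PBS in all 8. Cxcl9 and Gbp2, which respond chiefly to interferon gamma, stood on the other side in some classes, at 2.72 and 1.85 times young PBS in tenocyte-like cells, 2.21 and 1.63 times in pericyte/smooth muscle-like cells, and 1.5 and 1.55 times in dendritic-like cells.

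**Figure D4:**
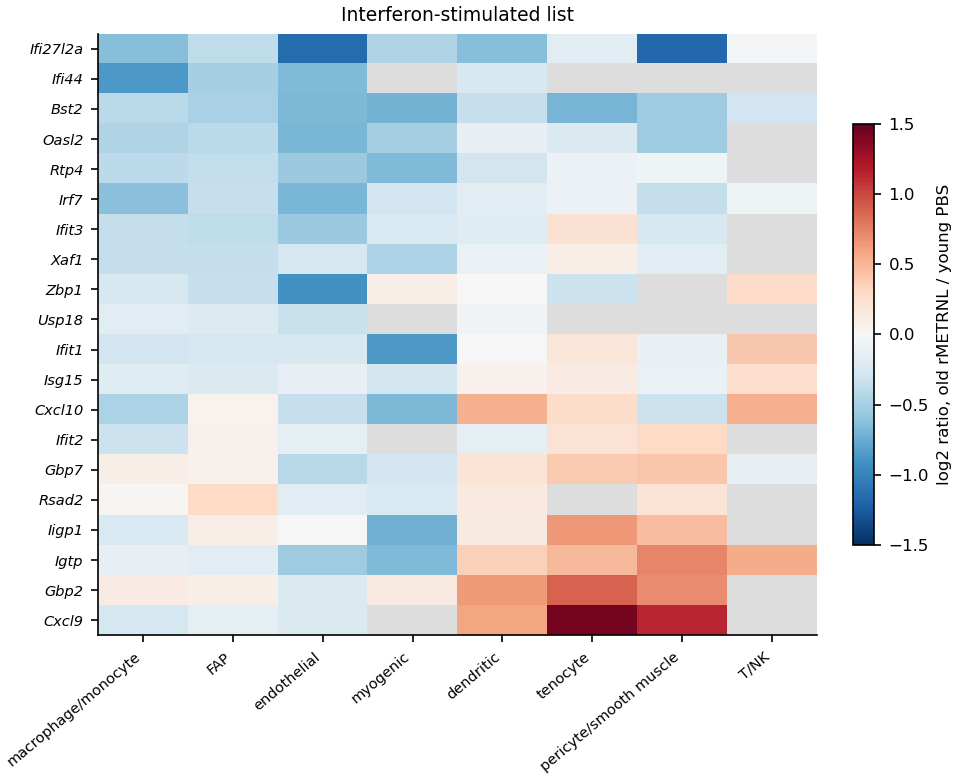
Log2 ratio of CPM, old rMETRNL over young PBS, for 20 of the 21 interferon-stimulated genes in 8 cell classes, with blue below and red above young PBS and grey where a gene had under 200 UMIs. The Bst2 and Ifi27l2a rows are below 0 in every class, the endothelial-like column lies mostly below 0, and Cxcl9 and Gbp2 are above 0 in tenocyte-like, pericyte/smooth muscle-like and dendritic-like cells.

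Beside the interferon genes, endothelial-like cells differed from young PBS in single genes. Cyp26b1, which degrades retinoic acid (chromosome 6, 84571414 to 84593908), stood at 4.94 CPM in young PBS against 43.8 CPM in old PBS, with 26.7 CPM in old rMETRNL, a ratio of 5.42 (3.96 to 7.56). Gm42047 was at 7.62, 9.69 and 23 CPM. Gja4, a connexin of arterial endothelium (chromosome 4, 127311421 to 127314039), was at 71.9, 29.9 and 30.2 CPM, a ratio of 0.419, and Apol9b at 36.3, 13.8 and 14.9 CPM, a ratio of 0.412. For Cyp26b1, Gja4 and Apol9b both old libraries were on the same side of young PBS. Ccl21a, a lymphatic chemokine, was at 142, 0.164 and 58.6 CPM, a ratio of 0.413 that came from 4 young PBS and 6 old rMETRNL cells. All 13 heat shock genes were above young PBS with a median log2 ratio of 0.27, none past the fold, and Hspb1 was at 1590, 1813 and 2309 CPM. The capillary cluster, led by Cldn5 and Gpihbp1, held 466, 762 and 768 cells. The venule-like cluster led by Selp and Ackr1 held 158, 119 and 167, a ratio of its share of 0.705 (0.564 to 0.882).

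Myogenic-like cells had stem cell genes near their young levels and lower levels of the differentiation genes. Pax7, the muscle stem cell transcription factor, stood at 77.5 CPM in young PBS against 72.5 CPM in old PBS, with 71 CPM in old rMETRNL, and Myf5 at 95.1, 82.9 and 92.9 CPM. Myod1, the myoblast determination factor, was at 258, 199 and 207 CPM, a ratio of 0.802. None of these was past the fold. Myog, which commits myoblasts to differentiate (chromosome 1, 134289989 to 134292548), was at 796, 569 and 393 CPM, a ratio of 0.494. Cdkn1c, the p57 inhibitor of the cell cycle (chromosome 7, 143458339 to 143461050), was at 981, 735 and 410 CPM, a ratio of 0.418 (0.406 to 0.431). Of the fusion genes, Mymk, which encodes myomaker, was at 223, 148 and 124 CPM and Mymx, which encodes myomixer, at 179, 117 and 98.1 CPM, ratios of 0.556 and 0.548. Contractile genes of young myocytes were lower too: Actc1, cardiac actin (chromosome 2, 114047282 to 114053548), was at 464, 345 and 127 CPM, a ratio of 0.274 (0.26 to 0.288) with 67.7% of its old rMETRNL UMIs in 5 cells, and Tnnt2 at 454, 336 and 212 CPM. Myh3, embryonic myosin, was at 357, 396 and 201 CPM. In all, 9 of 14 myogenic regulator and fusion genes were lower and 0 higher, against 1.82% lower over all genes, with a median log2 ratio of -0.86. For 8 of those 9 the level was ordered young PBS, old PBS, old rMETRNL, and Myh3 was highest in old PBS.

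The thinned shares of cells showed the same split. A Pax7 UMI was found in 13.8% of young PBS cells (10.7 to 17.4) and 17.5% of old rMETRNL cells (14 to 21.6), and a Myod1 UMI in 22.2% of each. For Myog the shares were 25.7% (21.6 to 30.1) and 18.8% (15.1 to 22.9), for Cdkn1c 40.1% and 28.4%, and for Actc1 13.3% and 6.17%. Old PBS cells had shares of 21.1%, 34% and 10.3% for these 3 genes. The intervals of Pax7 and of Myog overlap between the libraries, and those of Cdkn1c (35.5 to 44.9 and 24.1 to 33.1) do not. Before thinning, Myog UMIs were in 43.8% of young PBS and 35.8% of old rMETRNL cells, at median depths of 30221 and 29927 UMIs, and after thinning macrophage/monocyte-like cells had shares of 1.42% and 0.95%. In the same macrophage/monocyte-like cells the thinned shares were 1.72% and 1.19% for Cdkn1c and 1.13% and 0.742% for Actc1. For Pax7 they were 0.0643% and 0.0594%, and for Myod1 0.354% and 0.312%. The class formed a single cluster, so a different mix of stem cells and myocytes and a different level in each myocyte cannot be told apart. The summed level of 10 myocyte markers was 3457, 2755 and 1843 CPM with all 10 lower in old rMETRNL, and that of 12 stem cell and myoblast markers was 2156, 2159 and 1999 CPM. Macrophage markers in this class summed to 944, 1094 and 1344 CPM, with 18 higher and 6 lower in old rMETRNL. The 12 mature fibre markers summed to 4578, 3751 and 3048 CPM, with 10 lower and 2 higher. Tenocyte markers summed to 175, 94.1 and 110 CPM with all 11 lower, and FAP markers to 654, 827 and 522 CPM with 11 lower and 5 higher. The part of these other markers was not tested. Outside the myogenic regulator and fusion list, Itgb1bp2 (18.9, 14.2 and 6.3 CPM) and Myh8 (35.1, 43.9 and 9.06 CPM) were among the lowest, from 33 and 18 cells and from 21 and 6 cells of young PBS and old rMETRNL. Gm32913 and Olfr655 had the highest ratios, 25 and 8.2, with 96% and 83.2% of their old rMETRNL UMIs in 5 cells. Of the 24 cell cycle genes 22 were above young PBS, with a median log2 ratio of 0.15 and 0 past the fold.

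**Figure D5:**
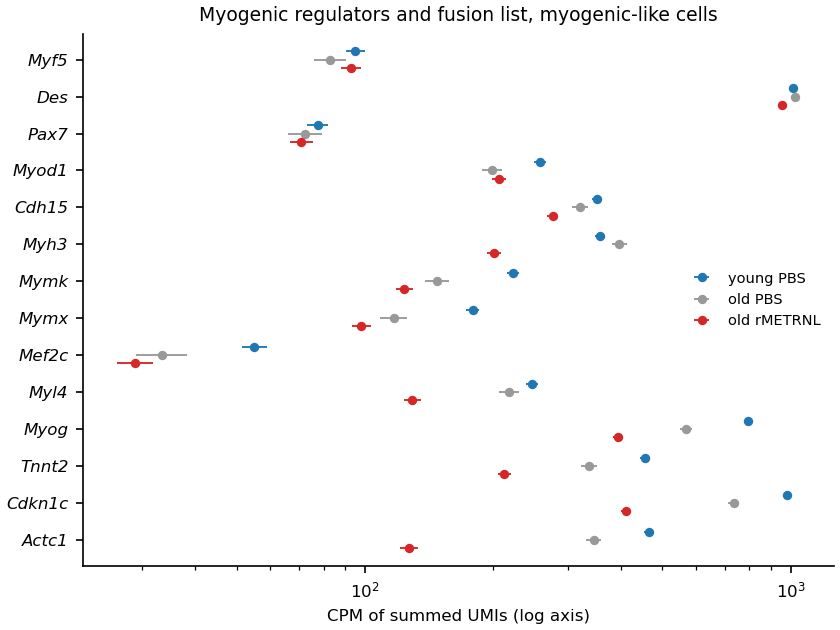
CPM on a log axis of 14 myogenic regulator and fusion genes in myogenic-like cells of young PBS, old PBS and old rMETRNL, with 95% counting intervals. Pax7 (77.5, 72.5 and 71 CPM) and Myf5 lie together in the 3 libraries, while Myog (796, 569 and 393), Cdkn1c (981, 735 and 410) and Actc1 (464, 345 and 127) descend from young PBS to old rMETRNL.

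In tenocyte-like cells, which build tendon, the genes furthest above young PBS were Sfrp4, Spon2, Tnxb and Dkk2. Sfrp4, a secreted inhibitor of Wnt signalling (chromosome 13, 19623104 to 19632994), stood at 112 CPM in young PBS against 275 CPM in old PBS, with 487 CPM in old rMETRNL, a ratio of 4.34 (3.92 to 4.83). Dkk2, another secreted Wnt regulator, was at 46.8, 116 and 124 CPM, Tnxb, which encodes tenascin X, at 105, 214 and 269 CPM and Spon2 at 49.4, 238 and 140 CPM. All 4 were higher in both old libraries than in young PBS. On the lower side, Slpi, a protease inhibitor, was at 247, 35.7 and 68.3 CPM with 64.6% of its young PBS and 91% of its old rMETRNL UMIs in 5 cells, and Serpinb1a at 96.4, 31.3 and 34.4 CPM. Mmp3, a stromelysin, was at 1007, 422 and 301 CPM with 81.4% of its young PBS UMIs in 5 cells. Epyc had UMIs in 3 and 4 cells of the compared libraries. The summed level of 6 mast cell markers in this class was 0.253 CPM in young PBS and 73.4 in old rMETRNL.

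In pericyte/smooth muscle-like cells, the mural cells of vessels, Sorbs2, Myh11, Palld and Gbp5 stood furthest above young PBS and most collagen chain genes were below it. Myh11, smooth muscle myosin (chromosome 16, 14194535 to 14291372), was at 412, 865 and 1242 CPM in young PBS, old PBS and old rMETRNL, a ratio of 3.02 (2.76 to 3.3), with 43.1% of its old rMETRNL UMIs in 5 cells. Sorbs2 was at 53.4, 139 and 266 CPM, Palld, an actin-bundling protein gene, at 74.4, 206 and 239 CPM and Gbp5, an interferon-induced GTPase gene, at 49.8, 103 and 138 CPM. In old rMETRNL 5 cells held 52.7% of the Sorbs2 and 60% of the Gbp5 UMIs. The 14 markers of this class were split, with 7 higher and 7 lower in old rMETRNL. Of 14 collagen chain genes 8 were lower and 0 higher, against 3.08% lower over all genes, with a median log2 ratio of -0.61. Col15a1, a basement membrane collagen, was at 462, 199 and 240 CPM. Cd248, which encodes endosialin, was at 187, 65.2 and 66.9 CPM, Pgf, a placental growth factor of the VEGF family, at 161, 48.2 and 63 CPM and Depp1 at 137, 5.67 and 37 CPM. Cd248 and Pgf were here at 38.9% and 34.4% of the level in their highest class. In Pgf and Depp1, 5 cells held 72.9% and 75.1% of the young PBS UMIs. The class held 109 young PBS and 115 old rMETRNL cells, and the summed level of 16 FAP markers in it was 3526, 2339 and 2952 CPM with 9 lower and 7 higher. The part of these markers in the collagen, Cd248 and Pgf levels was not tested.

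T/NK-like cells had a lower level of Gzma, a granzyme of cytotoxic cells (chromosome 13, 113093825 to 113100981), at 3148 CPM in young PBS against 1626 CPM in old PBS, with 1531 CPM in old rMETRNL, a ratio of 0.486 (0.457 to 0.517). Tyrobp and Fcer1g, adaptors of natural killer and myeloid receptors, were at 1054, 502 and 538 CPM and at 928, 556 and 499 CPM. Cd8b1, a chain of the CD8 coreceptor, was higher at 87.7, 331 and 179 CPM, and Ier5l was at 60.8, 124 and 137 CPM. The natural killer-led cluster was 49.8%, 19.8% and 31.1% of the class in the same order, its part in these levels was not tested, and the 24 macrophage markers in the class summed to 3117, 3242 and 1977 CPM with 19 lower. Il5 had UMIs in 8 young PBS cells and 1 old rMETRNL cell. In dendritic-like cells Ccl5, a chemokine for T cells, was at 613, 958 and 1089 CPM, a ratio of 1.78, named here after its value was seen. Gm43305 was at 9.2, 12.5 and 24.5 CPM and Gm47283 at 70, 42 and 32.3 CPM. Hbb-bs was at 91.4, 25 and 39.8 CPM in dendritic-like cells, with 83.7% of its young PBS UMIs in 5 cells, and its ratio of 0.435 was 1.15 with the barcodes of high doublet score kept.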

How the data were processed

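The deposited files hold raw UMI counts per gene and barcode for each library, which the authors made with Cell Ranger. The file headers give version 5.0.0 and the submitters' processing notes also name 3.1.0 and the build mm10. Of 32285 features, 99.8% matched GENCODE M21. Barcodes needed 500 detected genes and less than 10% of UMIs from mitochondrial genes. Scrublet as run in scanpy 1.11.5 made 0 automatic calls, so the barcodes with the highest scores were left out at 0.8% per 1000 barcodes (1110 young PBS, 1112 old PBS and 1433 old rMETRNL). Counts were scaled to 10000 and logged, and 2000 variable genes, 30 principal components and 20 neighbours gave 24 Leiden clusters at resolution 0.8 (leidenalg 0.10.2, scikit-learn 1.9.0). A cluster was named when at least 3 markers and 50% of a list were found in 10% of its cells, and the 8 best markers were scored. These naming conditions were set after the clusters were seen. Remaining steps used Python 3.11.15, numpy 2.4.6, pandas 2.3.3 and scipy 1.17.1.

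Raw UMIs were summed per library and class with at least 100 cells in both libraries. Levels have exact Poisson, shares exact Clopper-Pearson and ratios exact conditional intervals, and log2 ratios had 0.5 added to each count. Free RNA and PCR were not modelled. Named genes were those whose interval was furthest from 1 (10 each way in macrophage/monocyte-like and FAP-like cells, 4 each way in other classes) among genes at 20% or more of their highest class. Genes past the fold in the same direction in every class where they were measured, with at least 5 such classes, and members of 27 gene lists were also named. Members and lists were chosen with earlier results of these data known. Imprinted genes and Ccl5 in dendritic-like cells were added after their values were seen. Intervals and gene counts were run on simulated Poisson counts. In those counts UMIs were not gathered in few cells, so the simulation cannot show how the intervals hold for genes where they are. Other cell filters, clusterings, gene minimums, folds and weightings were tried. A few list members are not reported here by name.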

Additional observations from a re-analysis of the deposited data

Results flagged for a closer look

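Among the genes named by rank, and in classes where their level was at least 20% of their highest class, 4 were past 1.5-fold in opposite directions in different classes. With 1 library a side the difference between the classes was not tested. Cdo1, which encodes cysteine dioxygenase, was 2.6 times young PBS in macrophage/monocyte-like cells (1.6 CPM in young PBS, 4.16 in old rMETRNL) and 0.657 times in FAP-like cells (3.59 and 2.36 CPM). Palld, an actin-bundling protein gene, was 3.21 times young PBS in pericyte/smooth muscle-like cells and 0.654 times in myogenic-like cells (94.7 and 62 CPM). Serpinb1a, an inhibitor of neutrophil proteases, was 1.65 times young PBS in FAP-like cells (53.9 and 89.1 CPM) and 0.357 times in tenocyte-like cells (96.4 and 34.4 CPM). Hbb-bs, a haemoglobin gene, was 2.99 times young PBS in endothelial-like cells, 0.288 times in macrophage/monocyte-like cells and 0.435 times in dendritic-like cells. A single cell held 48.6% of its old rMETRNL UMIs in endothelial-like cells, 32.5% of its young PBS UMIs in macrophage/monocyte-like cells and 81.6% in dendritic-like cells.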

How the results depend on the processing

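Each result is a ratio of 2 libraries, so no alternative bears on differences between mice. No paired analysis was possible because each group had 1 library. A stricter cell filter (at least 1000 genes and under 5% mitochondrial UMIs) turned the myogenic-like share ratio to 1.14, the myogenic-like interferon median (log2) to 0.27 and its lipid-associated median to -0.031, and Car3 in FAP-like cells to a ratio of 4.86. It moved the share ratio of pericyte/smooth muscle-like cells to 0.703 and of mature fibre-like cells to 2.21, and the macrophage/monocyte-like cell cycle median to 0.32. Myogenic-like cells had a median above 5% mitochondrial UMIs in each library, so this filter left out a large part of that class. Its role in the myogenic-like changes was not tested. Of 54 share ratios recomputed, 51 moved by less than their interval. Gene ratios depended more on weighting: counting each gene ratio once under each alternative, 119 moved past their interval, 4 reversed and 732 did neither, with 45 moved and 60 not under the mean of per-cell CPM, and 23 moved and 22 not with clusters weighted equally.

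Counts of genes past the fold followed the gene minimum and the fold. The number of genes compared changes with the minimum and with the cells kept, so those counts are not shares of the same total. In macrophage/monocyte-like, FAP-like, endothelial-like, myogenic-like, dendritic-like, tenocyte-like, pericyte/smooth muscle-like and T/NK-like cells they were 751, 994, 648, 729, 576, 831, 1060 and 674 at a minimum of 50 UMIs, where fewer UMIs are needed to enter. In the same order they were 111, 136, 49, 66, 17, 46, 45 and 11 at 1000 UMIs, and 65, 81, 28, 56, 20, 38, 55 and 25 at a fold of 2. The mean of per-cell CPM, in which shallow cells weigh as much as deep ones, gave 562 endothelial-like, 456 myogenic-like and 430 tenocyte-like genes. These were of the same 7926, 8881 and 4484 genes compared with summed UMIs. With the barcodes of high doublet score kept there were 275 endothelial-like genes.

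Weighting clusters equally, an alternative chosen after seeing the data, gave a cell cycle median of 0.056 in macrophage/monocyte-like and -0.075 in FAP-like cells and an interferon median of -0.14 in macrophage/monocyte-like cells. Keeping barcodes of high doublet score gave a FAP-like cell cycle median of 0.101, a myogenic-like MHC class II median of -0.47, and dendritic-like ratios of 1.13 for Hba-a1, 1.13 for Hba-a2 and 1.15 for Hbb-bs. The T/NK-like heat shock median was -0.016 both at resolution 0.4 and with only the 2 libraries clustered, the myogenic-like circadian median 0.076 at 1000 UMIs, and the T/NK-like antioxidant median 0.021 with per-cell CPM. The cause of these changes was not tested. Leaving out shared barcodes, also chosen after seeing the data, changed no direction. Pericyte/smooth muscle-like gene results were not run under the stricter filter, at resolution 0.4 or with only the 2 libraries clustered, where under 100 cells were left.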
